A study of Mus musculus with 21 samples.

Results

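The lysosome of adipose tissue macrophages was followed through 36 genes, listed by name, that encode subunits of the vacuolar proton pump, proteins of the lysosomal membrane, and hydrolases or their cofactors, with the cathepsins left out. All 36 were found among the 54532 genes of the count table by matching Ensembl IDs to the GENCODE M21 annotation of GRCm38, and all 36 passed the filter on low counts. The cells were sorted from fat of male C57BL/6 mice that had eaten either a high fat diet (obese) or a normal diet (lean) for 16 weeks. Collagenase digestion and flow cytometry gave 4 populations: MHCII-low macrophages, MHCII-positive CD11c-negative macrophages, MHCII-positive CD11c-positive macrophages, and cells labelled monocyte-derived. The CD11c-positive macrophages came from obese mice alone and the other populations from both diets, which made 7 groups of 3 RNA-seq libraries. The labels give neither the fat depot nor the ages, and they do not say that the replicates were separate animals, so the p-values measure the spread between these libraries, which may be technical.

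The libraries held 11245851 to 35568948 counts, and the 36 genes took 0.570% to 1.75% of them. The sort markers followed the labels. The MHC class II gene H2-Ab1 averaged 240 and 346 CPM (counts scaled to equal library totals) in lean and obese MHCII-low cells. In the other groups it averaged at least 1620 CPM. Itgax, which encodes CD11c, averaged 559 CPM in CD11c-positive and 83.0 CPM in obese CD11c-negative macrophages. It averaged 16.6 CPM in lean CD11c-negative cells, and 4.73 and 44.6 CPM in lean and obese MHCII-low cells. Both populations thus held more Itgax in obese mice. The part of CD11c-positive cells in their diet differences was not tested. CPM of all marker genes were scaled by library total alone. Those of the 36 genes were also scaled by TMM. The macrophage gene Adgre1 averaged 418 to 990 CPM in the macrophage groups and 115 and 232 CPM in lean and obese monocyte-derived cells. Replicates of lean monocyte-derived cells correlated at 0.904 to 0.942 over all tested genes and those of the other groups at 0.972 to 0.990. A list of 8 dendritic cell markers summed to 701 to 1478 CPM in the lean and 478 to 955 CPM in the obese monocyte-derived libraries, against 56.3 to 419 CPM in the macrophage libraries, and obese replicate 2 had the highest summed fibroblast markers in each obese group. In sorted cells, fewer cells of a type and less RNA per cell cannot be told apart.

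Lysosomes are acidified by the V-ATPase, a rotary pump in which the cytosolic V1 sector splits ATP and the membrane sector V0 carries protons inward. The acid interior lets hydrolases take apart glycolipids, glycosaminoglycans, glycogen and proteins that the cell has engulfed or recycled, and in obese fat macrophages are known to fill their lysosomes with lipid from adipocytes. Many lysosomal genes are known targets of the MiT/TFE family of transcription factors, which includes TFEB and binds a short palindrome in their promoters.

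Levels of different genes were compared per kilobase of exon (CPM per kb). Psap, which encodes prosaposin, the precursor of the saposin cofactors of sphingolipid breakdown, was the most abundant of the 36 in every group, from 651 CPM per kb in lean MHCII-low to 2924 CPM per kb in CD11c-positive macrophages. Psap alone made up 19.8% ± 0.611 (SD, n = 3) of the CPM of the 36 genes in lean MHCII-low, 31.7% ± 5.06 in obese MHCII-low, 22.4% ± 0.988 in lean CD11c-negative, 34.6% ± 0.736 in obese CD11c-negative and 45.0% ± 0.362 in CD11c-positive macrophages. That share in cells labelled monocyte-derived was 45.4% ± 0.801 (lean) and 43.8% ± 1.07 (obese). Next to Psap stood the asparaginyl endopeptidase Lgmn, the membrane glycoprotein Lamp1 and the hexosaminidase subunit Hexa in all 5 macrophage groups. In lean monocyte-derived cells Gm2a, the activator that hands GM2 ganglioside to hexosaminidase A, took the place below Psap with 213 CPM per kb, and Atp6v0d2, an alternative d subunit of the pump, was the lowest of the 36 with 0.873 CPM per kb.

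**Figure D1:**
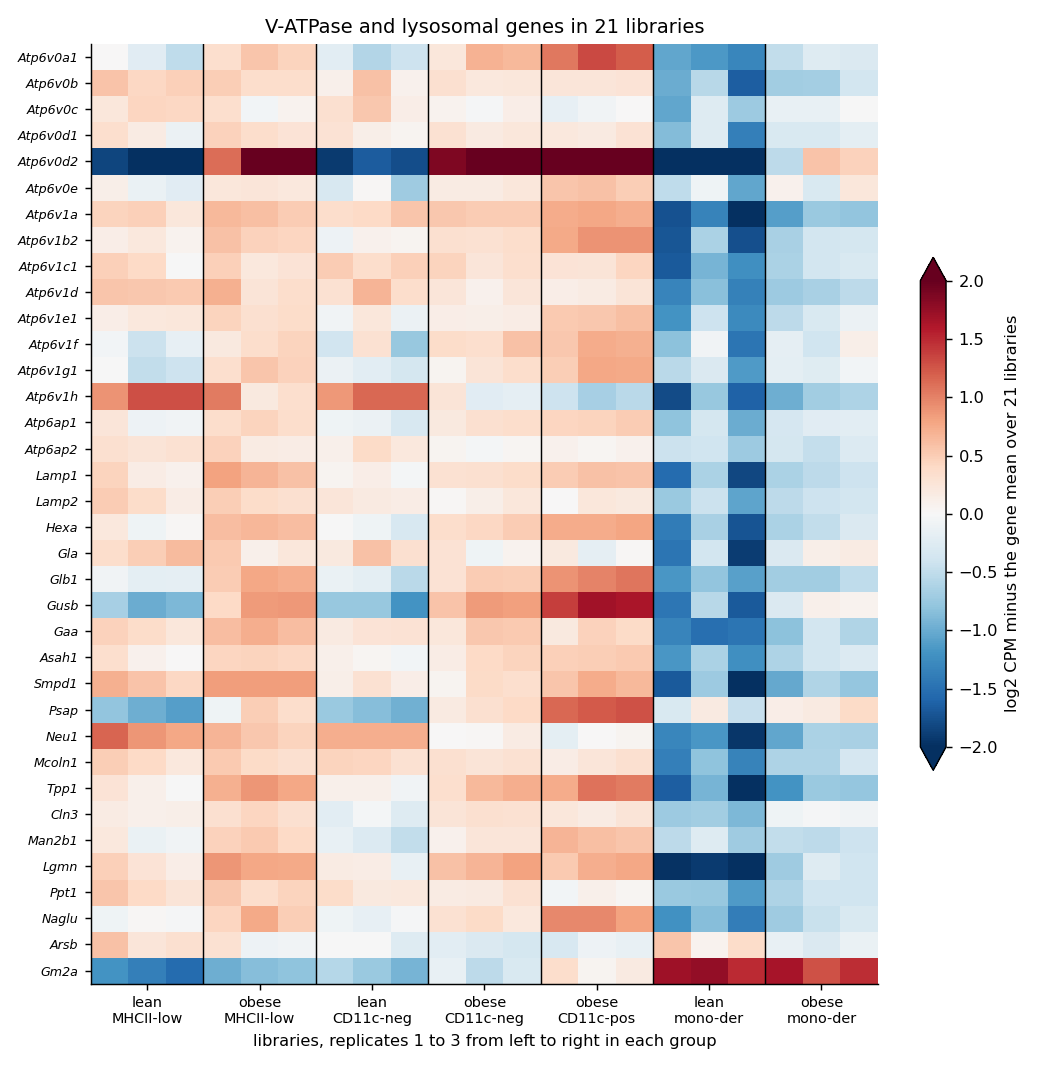
Log2 CPM of the 36 genes (rows) in the 21 libraries (columns), each minus the mean of the gene over the 21 libraries, with colours clipped at -2 and 2. Most rows are low (blue) in lean monocyte-derived cells, Gm2a is high there, and Atp6v0d2 is blue in all 9 lean libraries and red in all macrophage libraries of obese mice.

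The diet question was asked in 3 populations, as obese minus lean. In MHCII-low macrophages 13 of the 36 genes were higher and 0 lower, in CD11c-negative macrophages 14 were higher and 2 lower, and in monocyte-derived cells 22 were higher and 1 lower. A gene counts as higher or lower here, or is said to have risen or fallen, where the adjusted p of edgeR's quasi-likelihood test with Benjamini-Hochberg adjustment over all 22935 tested genes was under 0.05. Over all tested genes the share called was 30.7% in MHCII-low, 32.4% in CD11c-negative and 17.2% in monocyte-derived cells, and over the 7183 genes at least as abundant as the lowest of the 36 it was 43.8%, 47.2% and 21.7%. The members' own shares, 36.1%, 44.4% and 63.9%, were below or near the background of like abundance in the macrophages and above it in the monocyte-derived cells. Higher alone were 34.6%, 32.5% and 18.1% of the genes of like abundance. The median log2 difference of the 36 genes was 0.29, 0.29 and 0.58 in the 3 populations, against 0.21, 0.16 and 0.17 over the genes of like abundance.

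Higher in all 3 populations were 8 genes: Atp6v0d2, Atp6v0a1, Atp6ap1, Hexa, Gusb, Tpp1, Lgmn and Naglu. Of these, Atp6v0d2 alone kept its call in every alternative in all 3. The macrophage populations shared 13 of their rises, among them Psap, Glb1, Man2b1, Gm2a and Atp6v1g1, which did not pass the test in monocyte-derived cells. A further 12 genes passed only the test in monocyte-derived cells, 6 of them subunits of V1 or V0 (Atp6v1a, Atp6v1b2, Atp6v1c1, Atp6v1d, Atp6v1e1 and Atp6v0c). The libraries of both diets did not overlap for any of the called genes in the macrophages, and they overlapped in monocyte-derived cells for 3 of 23, Atp6v1b2, Atp6v1e1 and Tpp1. Called genes were picked by p from the same libraries, so their lack of overlap adds no support. Among all 36 genes, called or not, the diets did not overlap for 23 with a positive and 1 with a negative difference in MHCII-low cells. These counts were 19 and 5 in CD11c-negative and 21 and 1 in monocyte-derived cells. Over all tested genes the libraries of both diets did not overlap for 49.4%, 51.2% and 26.9% of genes in the 3 populations. In MHCII-low macrophages the count dropped to 7 without lean replicate 3 or obese replicate 2, to 8 without obese replicate 3 and to 6 without replicate 2 of every obese group, and with DESeq2's size factors it split into 12 higher and 3 lower (Atp6v1h, Neu1 and Arsb). In CD11c-negative macrophages it dropped to 10 without lean replicate 3 and 9 without obese replicate 3, and in monocyte-derived cells to 14 without lean replicate 3, to 15 without replicate 2 of every obese group and to 2 (Atp6v0d2 and Lgmn) when the 6 libraries were fitted alone.

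**Figure D2:**
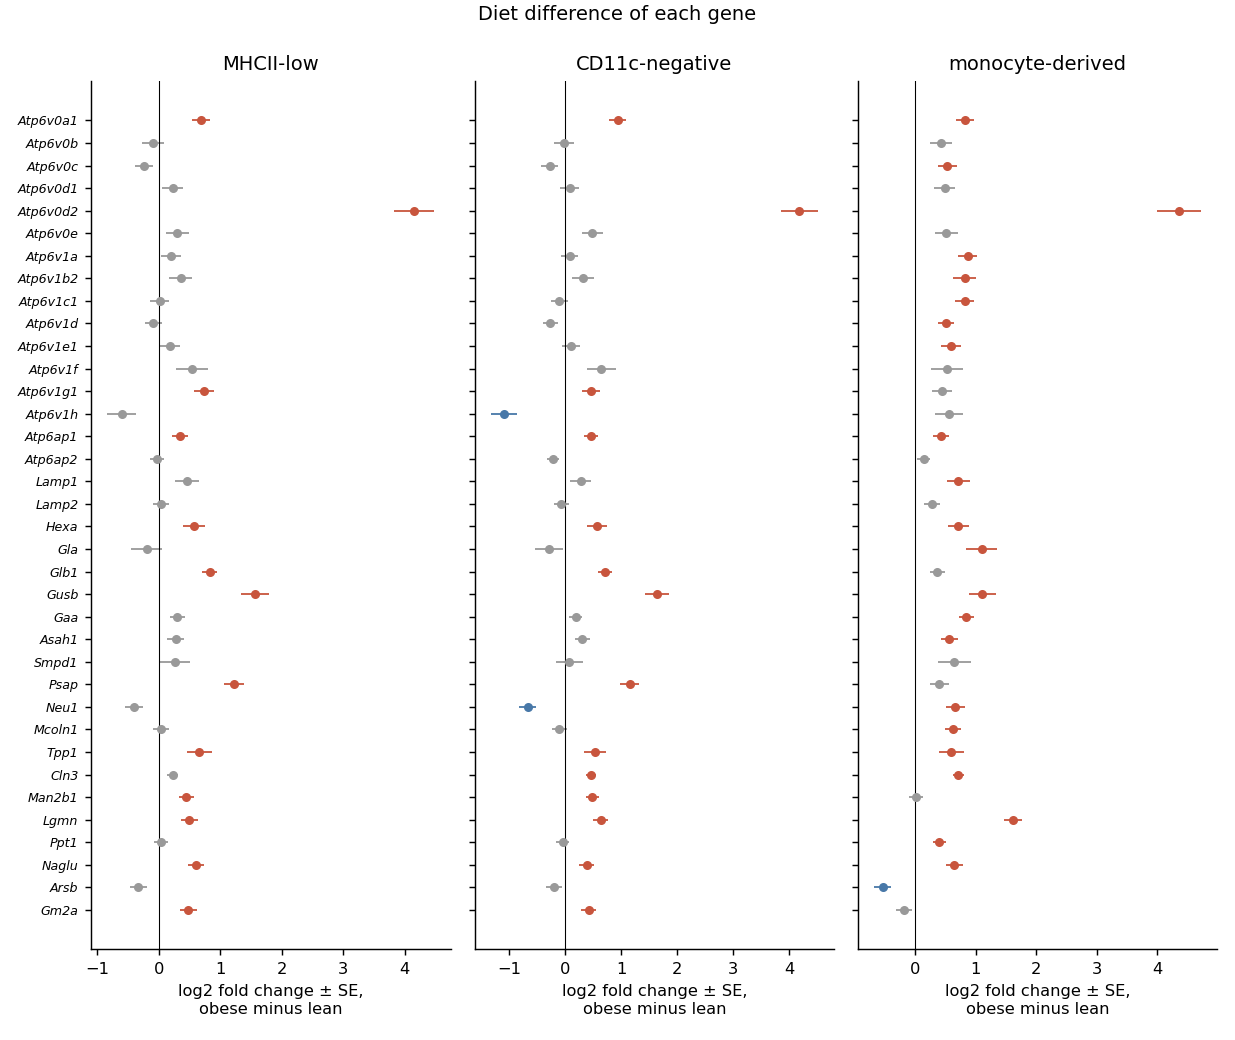
Log2 fold change (obese minus lean, horizontal axis) with its SE for each of the 36 genes in 3 populations; coloured points had an adjusted p under 0.05 (red higher, blue lower) and grey points did not. Atp6v0d2 stands at 4.15, 4.18 and 4.36, and 28, 24 and 34 of the 36 points lie to the right of 0 in the 3 panels.

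In the membrane sector V0, Atp6v0d2 (chromosome 4, 19876841 to 19922605, minus strand) showed the widest difference of the 36 genes. This d2 subunit is known from osteoclasts and macrophages, whereas d1, encoded by Atp6v0d1, is made in most tissues. In MHCII-low macrophages Atp6v0d2 stood at 11.6, 7.09 and 8.16 CPM in the lean and 89.7, 187 and 201 CPM in the obese libraries. In CD11c-negative macrophages the lean libraries held 10.9 to 13.0 CPM and the obese libraries 151, 246 and 255 CPM. The lean and obese libraries were far apart in both populations, and obese replicate 1 was the lowest of its group in each. Monocyte-derived cells went from 2.37, 2.51 and 2.23 CPM in lean to 28.9, 61.5 and 57.2 CPM in obese mice. The log2 differences were 4.15 (SE 0.33, edgeR adjusted p = 1.71e-07), 4.18 (SE 0.33, edgeR adjusted p = 1.78e-07) and 4.36 (SE 0.36, edgeR adjusted p = 5.29e-07), and each passed the test in every alternative that was run.

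Atp6v0d1 did not pass the test in any of the 3 populations. Its libraries ran from 98.4 to 135 CPM in lean and from 130 to 147 CPM in obese MHCII-low cells, and the log2 differences were 0.23 (SE 0.17), 0.08 (SE 0.17) and 0.49 (SE 0.18). Per kilobase, d2 made up 4.77% ± 0.880 (SD, n = 3) of the d subunit transcripts in lean MHCII-low and 42.2% ± 11.8 in obese MHCII-low macrophages. The d2 share was 6.24% ± 0.885 in lean and 52.5% ± 8.23 in obese CD11c-negative cells, 74.2% ± 2.57 in CD11c-positive cells, and 2.61% ± 0.808 and 26.2% ± 7.23 in lean and obese monocyte-derived cells. The d2 share in lean libraries never exceeded 6.84%, and in obese libraries it was never under 18.1%.

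**Figure D3:**
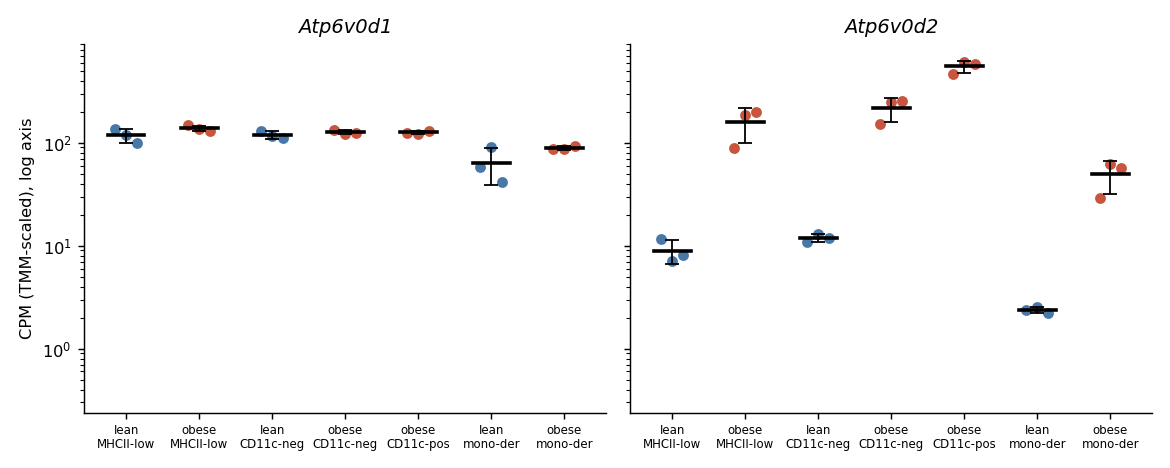
TMM-scaled CPM (log axis) of the d1 and d2 subunit genes in each library (points), with the group mean (wide bar) and SD (error bars), lean in blue and obese in red. Atp6v0d1 stays between 41.5 and 147 CPM, while Atp6v0d2 spans 2.23 to 603 CPM.

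The a subunit, which anchors the proton path, is encoded among the 36 by Atp6v0a1 (chromosome 11, 101009452 to 101063719, plus strand). It held 245, 190 and 213 CPM in lean and 334, 460 and 446 CPM in obese CD11c-negative libraries, which did not overlap. It rose from 243 ± 43.1 to 390 ± 29.8 CPM (SD, n = 3) in MHCII-low and from 127 ± 11.6 to 225 ± 19.5 CPM in monocyte-derived cells, by 0.68 (SE 0.14) and 0.82 (SE 0.15) on the log2 scale, and by 0.94 (SE 0.14, edgeR adjusted p = 8.33e-05) in CD11c-negative cells. The a3 subunit gene Tcirg1, known from osteoclasts and not among the 36, also rose in all 3 populations, by 1.13, 1.28 and 0.87 on the log2 scale. Counted per kilobase against Atp6v0a1 and Atp6v0a2, Tcirg1 supplied 39.2% to 45.5% (lean) and 46.4% to 53.3% (obese) of the a subunit transcripts of MHCII-low libraries, which did not overlap. In CD11c-negative libraries it supplied 46.2% to 54.2% (lean) and 54.0% to 60.0% (obese), which overlapped. The proteolipid ring subunits Atp6v0b and Atp6v0c and the small subunit Atp6v0e were not called in the macrophages. In monocyte-derived cells Atp6v0c passed the test, from 67.0 ± 18.5 to 97.1 ± 5.66 CPM. Atp6v0c has pseudogenes named Atp6v0c-ps1 and Atp6v0c-ps2 that may share its reads, and a 243-base stretch of Atp6v0b exon is overlapped by the antisense gene Gm12841.

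Of the 8 genes of the cytosolic sector V1, Atp6v1g1, which encodes a stalk subunit, was the only member that rose in both macrophage populations, from 27.6 ± 5.17 to 46.0 ± 3.33 CPM in MHCII-low and from 28.7 ± 2.34 to 39.4 ± 4.16 CPM in CD11c-negative cells, the second call being lost without any of the 6 libraries. Atp6v1h (chromosome 1, 5070018 to 5162529, plus strand) encodes the H subunit, which is needed for the assembled pump to turn over ATP. It stood at 454, 549 and 553 CPM in the lean and 299, 213 and 220 CPM in the obese CD11c-negative libraries, so the groups did not overlap. It fell there by 1.09 on the log2 scale (SE 0.24, edgeR adjusted p = 0.00194). In MHCII-low cells the lean libraries held 463, 608 and 610 CPM and the obese ones 511, 285 and 315 CPM. These groups overlapped through obese replicate 1, the log2 difference was -0.60 (SE 0.23, edgeR adjusted p = 0.0591), and it was called lower in 5 of 12 alternatives, DESeq2 among them. In monocyte-derived cells Atp6v1h averaged 100 ± 40.8 CPM (lean) and 148 ± 18.5 CPM (obese), a log2 difference of 0.56 (SE 0.24) that did not pass the test. Part of its exons, 127 bases, overlap Rgs20 on the other strand, and the sources used here do not give the strand setting of the counting.

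Relative to the catalytic subunit gene Atp6v1a, Atp6v1h per kilobase stood at 0.755 ± 0.159 in lean and 0.427 ± 0.125 in obese MHCII-low cells, at 0.668 ± 0.0531 and 0.297 ± 0.0530 in lean and obese CD11c-negative cells, and at 0.179 ± 0.0173 in CD11c-positive cells. That ratio did not overlap between lean and obese libraries in either macrophage population. Atp6v1a itself was not called with diet in the macrophages, with 465 ± 42.3 and 535 ± 27.0 CPM in lean and obese MHCII-low cells, where the libraries did not overlap, and it rose from 107 ± 34.4 to 195 ± 25.4 CPM in monocyte-derived cells. All 8 V1 genes had a positive log2 difference in monocyte-derived cells, 0.45 to 0.87, and 5 of them passed the test: Atp6v1a, Atp6v1c1, Atp6v1b2, Atp6v1d and Atp6v1e1. Of the accessory proteins, Atp6ap1 rose in all 3 populations by 0.35 to 0.46 on the log2 scale, the MHCII-low call being lost in 11 of 12 alternatives, and Atp6ap2, the prorenin receptor, was called in none.

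Summed over the sector, the 6 V0 genes gave 733 ± 68.5 CPM in lean and 1035 ± 52.8 CPM in obese MHCII-low cells, 677 ± 53.7 and 1082 ± 117 CPM in lean and obese CD11c-negative cells, and 1670 ± 138 CPM in CD11c-positive cells. The 8 V1 genes gave 1901 ± 88.9, 1936 ± 205, 1845 ± 112, 1691 ± 69.7 and 1961 ± 51.1 CPM in the same order. The V0 sums separated lean from obese macrophage libraries without overlap, whereas the V1 sums overlapped between diets, with 1846 to 2004 and 1814 to 2172 CPM in lean and obese MHCII-low and 1716 to 1918 and 1624 to 1763 CPM in lean and obese CD11c-negative libraries. In monocyte-derived cells both sums were higher in obese mice, V0 with 291 to 452 CPM in lean and 556 to 658 CPM in obese libraries and V1 with 429 to 786 and 805 to 1000.3 CPM, and neither overlapped.

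The contrast between the sectors rested on few genes, as sums chosen after the values were seen show. Without Atp6v1h the other 7 V1 genes separated the diets, with 1236 to 1396 CPM in lean against 1508 to 1662 CPM in obese MHCII-low libraries and 1262 to 1369 against 1410 to 1466 CPM in CD11c-negative ones. Without Atp6v0d2 and Atp6v0a1 the other 4 V0 genes overlapped between diets in every population, with 458 to 506 against 466 to 524 CPM in MHCII-low, 391 to 514 against 436 to 463 CPM in CD11c-negative and 174 to 321 against 309 to 368 CPM in monocyte-derived libraries.

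**Figure D4:**
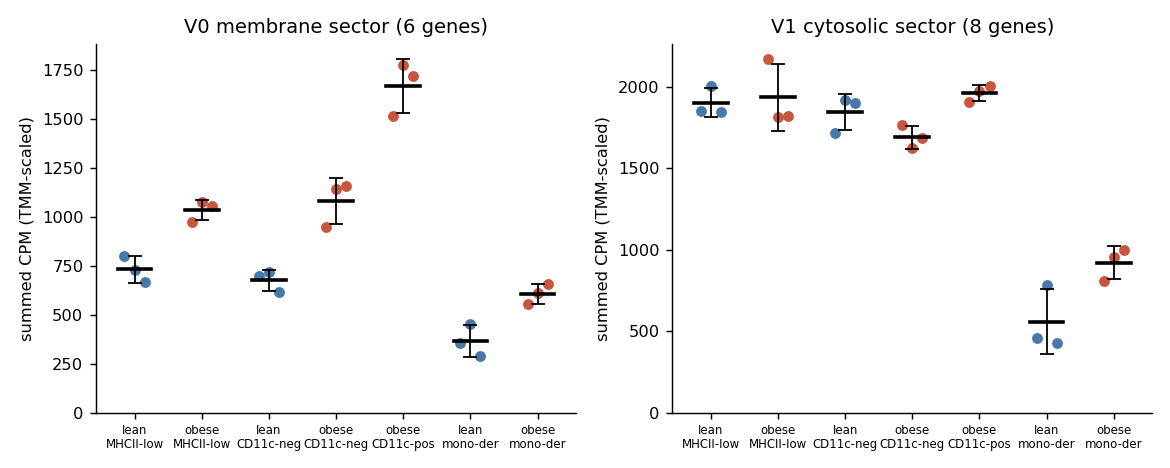
Summed TMM-scaled CPM of the 6 V0 genes and the 8 V1 genes in each library (points), with group mean and SD, lean in blue and obese in red. V0 sums rise from 733 to 1035 CPM in MHCII-low cells and reach 1670 CPM in CD11c-positive cells, while mean V1 sums of the macrophage groups run from 1691 to 1961 CPM, with Atp6v1h within them going from 560 CPM in lean MHCII-low to 172 CPM in CD11c-positive cells.

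Of the 4 lysosomal membrane proteins, none was called in MHCII-low macrophages and Cln3 alone was higher in CD11c-negative macrophages, from 34.3 ± 2.74 to 47.5 ± 1.05 CPM. In monocyte-derived cells 3 of 4 rose. Lamp1, a heavily glycosylated protein that lines the membrane, stood there at 186, 348 and 153 CPM in the lean and 349, 375 and 404 CPM in the obese libraries. Lean replicate 2 lay just under the lowest obese library, and the log2 difference was 0.71 (SE 0.19, edgeR adjusted p = 0.0169), a call lost without lean replicate 1, without lean replicate 3 and without replicate 2 of every obese group. In macrophages Lamp1 averaged 637 ± 85.9 CPM in lean and 877 ± 69.7 CPM in obese MHCII-low cells, a log2 difference of 0.46 (SE 0.19), and the difference in CD11c-negative cells was 0.28 (SE 0.19). The calcium channel Mcoln1 rose from 21.4 ± 4.96 to 33.2 ± 3.70 CPM and Cln3, a protein lost in juvenile Batten disease, from 23.3, 23.7 and 20.8 CPM in lean to 36.4, 37.9 and 36.9 CPM in obese libraries, far apart, by 0.71 on the log2 scale (SE 0.09, edgeR adjusted p = 4.67e-05). Lamp2, which also serves chaperone-mediated autophagy, was not called in any diet comparison; its log2 differences were 0.04 (SE 0.13), -0.07 (SE 0.13) and 0.29 (SE 0.13), and its group means in macrophages ran from 523 to 629 CPM. Exons of Lamp1 and Cln3 overlap Grtp1 and Apobr on the other strand by 249 and 442 bases.

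Among the 8 genes of sphingolipid breakdown, Psap (chromosome 10, 60277627 to 60302597, plus strand) held 2003, 1747 and 1613 CPM in lean and 3255, 4879 and 4423 CPM in obese MHCII-low libraries. The lean CD11c-negative libraries held 2063, 1921 and 1774 CPM and the obese ones 3930, 4290 and 4562 CPM. No obese library came near the lean ones in either population, and the log2 differences were 1.23 (SE 0.16, edgeR adjusted p = 2.06e-05) and 1.15 (SE 0.16, edgeR adjusted p = 3.41e-05). In monocyte-derived cells the lean libraries held 2809, 3905 and 2511 CPM and the obese ones 3786, 3901 and 4480 CPM, which overlapped, and the log2 difference of 0.40 (SE 0.16) did not pass the test. The galactosidase Glb1 rose from 33.4, 30.9 and 31.1 CPM in lean to 50.3, 60.3 and 58.6 CPM in obese MHCII-low libraries (log2 difference 0.83, SE 0.12, edgeR adjusted p = 7.36e-05) and by 0.72 in CD11c-negative cells; it shares 165 bases of exon on the same strand with Tmppe. Hexa rose in all 3 populations by 0.56 to 0.72, with both macrophage calls lost in 6 of 12 alternatives; 255 bases of its exons overlap Tmem202 on the other strand.

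Gm2a rose in MHCII-low cells, from 109 ± 13.1 to 152 ± 9.35 CPM, and in CD11c-negative cells, from 167 ± 21.2 to 224 ± 29.4 CPM, whereas in monocyte-derived cells it averaged 880 ± 84.1 CPM (lean) and 776 ± 103 CPM (obese). Neither macrophage call of Gm2a was kept in every alternative. Neu1, the sialidase that trims gangliosides and glycoproteins, moved against most of the set in macrophages. It fell in CD11c-negative cells from 108, 108 and 108 CPM in the lean to 65.3, 66.4 and 72.8 CPM in the obese libraries, by 0.66 on the log2 scale (SE 0.15, edgeR adjusted p = 0.00258). It rose in monocyte-derived cells from 24.2 ± 6.34 to 38.5 ± 5.97 CPM, and in MHCII-low cells its log2 difference was -0.40 (SE 0.15, edgeR adjusted p = 0.0501). The alpha-galactosidase Gla rose in monocyte-derived cells, from 56.6 ± 32.6 to 122 ± 19.8 CPM, and its log2 differences in MHCII-low and CD11c-negative cells were -0.20 (SE 0.26) and -0.29 (SE 0.26). The acid ceramidase Asah1 rose in monocyte-derived cells, from 88.6 ± 20.8 to 131 ± 16.1 CPM. It was not called in the macrophages, where its log2 differences were 0.28 (SE 0.14) and 0.31 (SE 0.14) and lean and obese libraries did not overlap. The acid sphingomyelinase Smpd1, low throughout with group means of 4.23 to 21.4 CPM, was called in none.

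**Figure D5:**
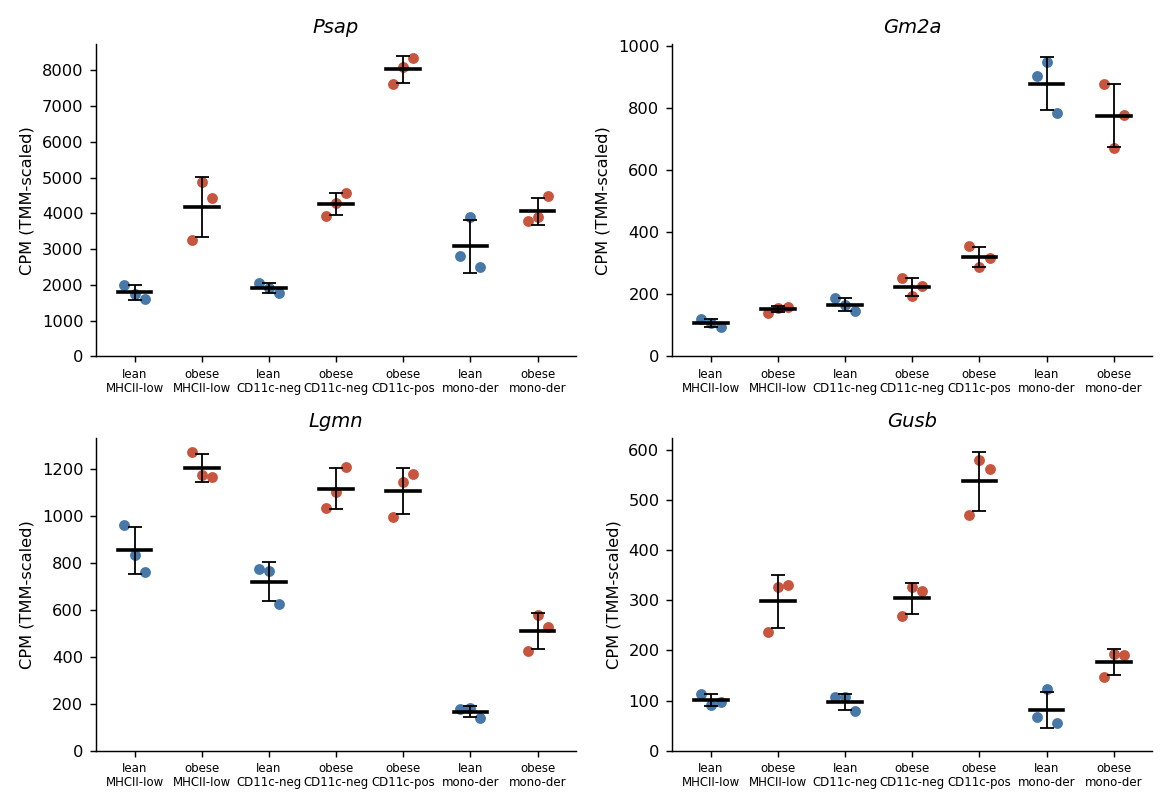
TMM-scaled CPM of Psap, Gm2a, Lgmn and Gusb in each library (points), with group mean and SD, lean in blue and obese in red. Psap and Gusb peak in CD11c-positive macrophages (8024 and 537 CPM), Gm2a is highest in monocyte-derived cells (880 and 776 CPM), and Lgmn is lowest in lean monocyte-derived cells (166 CPM).

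Among the 5 genes of glycan and glycosaminoglycan breakdown, the beta-glucuronidase Gusb (chromosome 5, 129989011 to 130003049, minus strand) had the widest rise. It stood at 114, 91.2 and 97.3 CPM in lean and 237, 327 and 331 CPM in obese MHCII-low libraries, and at 107, 107 and 79.1 CPM in lean and 269, 326 and 318 CPM in obese CD11c-negative libraries. The diets were apart in each, with log2 differences of 1.57 (SE 0.22, edgeR adjusted p = 4.92e-05) and 1.64 (SE 0.22, edgeR adjusted p = 2.67e-05), and in monocyte-derived cells Gusb rose by 1.11 (SE 0.22). The heparan sulfate enzyme Naglu also rose in all 3 populations, by 0.60, 0.39 and 0.65, and the alpha-mannosidase Man2b1 rose in the macrophages, by 0.45 and 0.49, with a difference of 0.02 (SE 0.12) in monocyte-derived cells. None of these calls of Naglu and Man2b1 was kept in every alternative. Gaa, which releases glucose from glycogen, rose in monocyte-derived cells from 26.1, 22.7 and 23.5 CPM in lean to 36.8, 50.4 and 42.6 CPM in obese libraries, without overlap (log2 difference 0.85, SE 0.12, edgeR adjusted p = 0.000142). Arsb, the sulfatase of dermatan and chondroitin sulfate, was the only gene of the 36 that fell in monocyte-derived cells, from 47.0, 33.3 and 41.0 CPM in lean to 28.7, 26.0 and 29.0 CPM in obese libraries, by 0.54 on the log2 scale (SE 0.14, edgeR adjusted p = 0.0138), a call lost in 7 of 12 alternatives. The noncoding genes Gm47210 and Gm26527 overlap its exons on the other strand.

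Of the 3 enzymes that act on proteins, Lgmn (chromosome 12, 102394084 to 102439813, minus strand) held 176, 183 and 138 CPM in the lean and 423, 577 and 525 CPM in the obese monocyte-derived libraries. All obese libraries were above all lean ones, and the log2 difference of 1.62 (SE 0.14, edgeR adjusted p = 3.46e-07) was the smallest p of the set in that population. Lgmn also rose in macrophages, from 851 ± 102 to 1203 ± 60.5 CPM in MHCII-low and from 719 ± 83.7 to 1114 ± 87.7 CPM in CD11c-negative cells, by 0.50 and 0.63 on the log2 scale. The peptidase Tpp1 rose by 0.66, 0.54 and 0.60 in the 3 populations, calls that were lost in 5, 8 and 7 of 12 alternatives. Ppt1, which removes palmitate from proteins, rose in monocyte-derived cells from 43.3 ± 6.25 to 57.4 ± 4.76 CPM and was not called in macrophages, where its log2 differences were 0.04 (SE 0.11) and -0.04 (SE 0.11).

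Whether the diet difference itself depended on the population was tested as an interaction, the diet difference in monocyte-derived cells minus the mean of the diet differences in both macrophage populations. It was called for 13 of the 36 genes, 11 higher and 2 lower, against 9.39% of all tested genes and 16.7% of the genes of like abundance (9.4% higher). The interaction was 1.19 on the log2 scale for Neu1 (SE 0.19, edgeR adjusted p = 0.000487) and 1.05 for Lgmn (SE 0.17, edgeR adjusted p = 0.000563), the 2 genes called in every alternative. Atp6v1h had 1.40 (SE 0.29) and Gla 1.34 (SE 0.32), and Atp6v0c, Atp6v1a, Atp6v1c1, Atp6v1d, Gaa, Mcoln1 and Cln3 had 0.36 to 0.87. The lower genes were Psap with -0.79 (SE 0.20, edgeR adjusted p = 0.0146) and Gm2a with -0.63 (SE 0.16, edgeR adjusted p = 0.0185), whose calls were lost in 12 and 17 of 25 alternatives. Without lean monocyte-derived replicate 2 the count was 23, and without replicate 2 of every obese group it was 2. Lean monocyte-derived cells had the widest spread between libraries and the highest summed level of receptor genes that myeloid cells should not express, 288 to 1080 CPM against 21.1 to 208 CPM in the other groups, and 3 of 8 dendritic cell markers were lower in obese than in lean monocyte-derived cells; their part in these differences was not tested. The diet difference was also compared between the macrophage populations. None of the 36 genes was called by edgeR (0 called, 0 with an unadjusted p under 0.05) or DESeq2 (0 called). Of all 22935 tested genes these tools called 0 and 3, and 634 had an unadjusted p under 0.05 in edgeR. The main fit held no block, although equal numbers paired the obese libraries. With 0 calls the diet differences are not shown to be equal.

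Within obese mice the CD11c-positive macrophages, which appear in obese fat, were compared with the CD11c-negative ones. Higher were 7 of the 36 genes (Atp6v0d2, Atp6v0a1, Psap, Gusb, Glb1, Naglu and Gm2a) and lower 0, against 3.49% of all tested genes and 6.89% of those of like abundance (2.84% higher). Psap stood at 7620, 8098 and 8352 CPM in the CD11c-positive libraries, all above the obese CD11c-negative ones, a log2 difference of 0.91 (SE 0.16, edgeR adjusted p = 0.00403). Naglu was higher, with 51.9, 51.8 and 46.6 CPM against 33.0, 34.6 and 30.7 CPM, without overlap (log2 difference 0.61, SE 0.13, edgeR adjusted p = 0.0126). Atp6v0d2 stood at 470, 603 and 586 CPM, 1.35 above CD11c-negative cells on the log2 scale (SE 0.29, edgeR adjusted p = 0.0147), while Atp6v0d1 averaged 126 CPM in both populations and differed by -0.01 (SE 0.17). Lamp1 and Lamp2 were not called, with differences of 0.23 (SE 0.19) and 0.02 (SE 0.13). All 7 genes also rose with diet in both macrophage populations, and the diet comparison in CD11c-negative cells shares the obese CD11c-negative libraries with the one made here. Equal replicate numbers paired the obese libraries, and with the description number as a block Atp6v1e1, Atp6v1g1 and Man2b1 were called as well, with log2 differences of 0.42, 0.45 and 0.42. The count was 14 when the 6 libraries were fitted alone, 0, 3 and 3 without obese CD11c-negative replicate 1, 2 or 3, 4, 1 and 1 without CD11c-positive replicate 1, 2 or 3, and 0 without replicate 2 of every obese group. Markers of other cells differed too: 6 endothelial markers summed to 133 to 193 CPM in CD11c-positive and 70.7 to 125 CPM in CD11c-negative libraries, without overlap, and 10 adipocyte markers, mostly Fabp4, to 177 to 199.6 against 103 to 149 CPM. Dendritic cell sums were 56.3 to 82.2 against 63.4 to 98.9 CPM and fibroblast sums 1115 to 1958 against 1244 to 2755 CPM. None of the genes in these 4 lists was called by edgeR, and their part in the 7 calls was not tested.

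Between MHCII-low and CD11c-negative macrophages 1 of the 36 genes was called. This was Gm2a, higher in CD11c-negative cells by 0.56 (SE 0.14, edgeR adjusted p = 0.0226) in obese and 0.62 (SE 0.14, edgeR adjusted p = 0.0194) in lean mice. Over all tested genes 3.05% were called in obese and 1.3% in lean mice, and over those of like abundance 6.1% and 3.13%. Most members nevertheless had a lower level in CD11c-negative cells, 29 of 36 in obese and 28 of 36 in lean mice, with median log2 differences of -0.18 and -0.12 against 0.02 and 0.06 for genes of like abundance. In obese mice the libraries of the 2 populations did not overlap for 16 members that were lower and 1 that was higher, while 25% of all tested genes had no overlap in either direction. In lean mice they did not overlap for 5 members that were lower and 1 that was higher. The share over all genes was not kept for that comparison, so these counts have no background to stand against. Lamp1, Lamp2, Atp6v0d1 and Atp6v0d2 were not called in either diet, with log2 differences between -0.37 and 0.45. In obese mice the call of Gm2a was lost without any of the 3 MHCII-low libraries and without CD11c-negative replicate 1 or 3, where the count became 0, and in lean mice without any library except CD11c-negative replicate 3, where the others also gave 0. With the description number as a block Neu1 was called lower in obese CD11c-negative cells, by -0.50 (edgeR adjusted p = 0.0407).

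Monocyte-derived cells stood below the macrophages they were tested against in most of the set. In obese mice these were the CD11c-positive macrophages alone, which had the highest summed level of the 36 genes. That sum averaged 17812 CPM, against 12309 CPM in obese CD11c-negative and 13132 CPM in obese MHCII-low macrophages. In lean mice 28 of the 36 genes were lower and 3 higher than in CD11c-negative macrophages, against 43.7% called in either direction among all tested genes, and in obese mice 31 were lower and 1 higher than in CD11c-positive macrophages, against 38.7%. Of the genes of like abundance 58.6% (35.4% lower) were called in lean and 51.7% (33.9% lower) in obese mice. In lean cells Lgmn was lower by -2.12 (SE 0.14, edgeR adjusted p = 4.54e-10) and Gaa by -1.68 (SE 0.12, edgeR adjusted p = 1.31e-09). The 3 higher genes were Gm2a, Psap and Arsb. Gm2a stood at 906, 948 and 786 CPM in lean monocyte-derived cells against 189, 166 and 146 CPM in lean CD11c-negative macrophages, 2.40 higher on the log2 scale (SE 0.14, edgeR adjusted p = 6.88e-11), and Psap was 0.68 higher (SE 0.16, edgeR adjusted p = 0.00199). In obese mice, where the reference was CD11c-positive macrophages, Gm2a was higher, by 1.28 (SE 0.14, edgeR adjusted p = 5.69e-07), and Psap lower, by -0.98 (SE 0.16). The 2 directions of Psap thus belong to unlike references. Psap stood at 3786, 3901 and 4480 CPM in obese monocyte-derived libraries. Obese CD11c-negative libraries, against which these cells were not tested, held 3930, 4290 and 4562 CPM. Glb1 with -1.62 (SE 0.13, edgeR adjusted p = 2.84e-08) and Atp6v0a1 with -1.54 (SE 0.15, edgeR adjusted p = 1.74e-07) were the lower genes of smallest p in obese mice. Atp6v0d2 was 3.49 lower there on the log2 scale, from 553 ± 72.5 to 49.2 ± 17.7 CPM, Atp6v0d1 0.50 lower, Lamp1 1.08 lower and Lamp2 0.58 lower.

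Gm2a and Hexa work together on GM2 ganglioside, and their balance differed by population. Per kilobase Gm2a stood at 0.164 ± 0.0160 of Hexa in lean and 0.153 ± 0.00854 in obese MHCII-low macrophages, at 0.286 ± 0.0113 and 0.260 ± 0.0424 in lean and obese CD11c-negative macrophages and at 0.295 ± 0.0316 in CD11c-positive cells. The monocyte-derived cells stood at 3.37 ± 0.925 in lean and 1.70 ± 0.375 in obese mice. The ratio ran from 0.145 to 0.330 over the macrophage libraries and from 1.48 to 4.06 over the monocyte-derived libraries. The 8 dendritic cell markers summed to 478 to 1478 CPM in the monocyte-derived and 56.3 to 419 CPM in the macrophage libraries, and 6 of them averaged more in both monocyte-derived groups than in any macrophage group. The exceptions were Xcr1, with 16.9 and 14.8 CPM in lean and obese monocyte-derived cells and 17.9 CPM in lean CD11c-negative macrophages, and Irf4, with 189 CPM in obese monocyte-derived cells and 268 CPM in lean MHCII-low macrophages. The part of such cells in the Gm2a level was not tested.

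Across the 21 libraries 26 of the 36 genes had a correlation of at least 0.8 with the mean of the other members on the log2 CPM scale, led by Lamp1 and Asah1 (both 0.99), and 2 had a negative one, Arsb (-0.39) and Gm2a (-0.74). Psap had 0.30 and Atp6v1h 0.57. These are descriptions over libraries that share their groups and TMM scaling.

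Because most members moved together, their promoters were read for the palindrome CACGTG, the core bound by MiT/TFE factors, in the window from 250 bases before to 50 bases after the start in RefSeq (GRCm38.p6). Of the 36 genes 30 had a promoter in the table; Atp6v0d2, Atp6v1b2, Atp6v1c1, Atp6v1g1, Atp6v1h and Asah1 were not matched. CACGTG, which reads the same on both strands, occurred in 12 of 30 members (40.0%) and in 8.09% of the 27025 genes of the table. The longer TCACGTGA, which contains it, occurred in 6 members (20.0%) and 1.12% of genes. The windows below were chosen to show the members with TCACGTGA, the promoter of Lamp1 with 4 copies and that of Lgmn, the member of smallest p in monocyte-derived cells. Capitals mark CACGTG, or TCACGTGA where it is present, and each window is written 5′ to 3′ on the strand of the gene. The table holds 2 promoters for Cln3 and 2 for Lgmn, and in each gene CACGTG occurred in 1 of them, which is the one shown.
Cln3, chr7:126583326-126583410, minus strand: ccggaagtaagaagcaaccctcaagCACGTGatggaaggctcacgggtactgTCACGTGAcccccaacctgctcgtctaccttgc
Mcoln1, chr8:3500423-3500505, plus strand: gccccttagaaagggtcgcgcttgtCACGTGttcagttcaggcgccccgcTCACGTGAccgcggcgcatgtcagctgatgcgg
Gla, chrX:134601168-134601255, minus strand: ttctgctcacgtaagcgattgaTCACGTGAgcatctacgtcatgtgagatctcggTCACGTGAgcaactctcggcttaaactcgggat
Atp6v0d1, chr8:105566040-105566093, minus strand: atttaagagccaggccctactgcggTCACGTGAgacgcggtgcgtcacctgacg
Atp6v0e, chr17:26676373-26676420, plus strand: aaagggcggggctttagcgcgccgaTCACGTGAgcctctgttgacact
Atp6v1a, chr16:44139359-44139416, minus strand: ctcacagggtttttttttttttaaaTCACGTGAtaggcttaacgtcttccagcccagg
Lamp1, chr8:13159075-13159176, plus strand: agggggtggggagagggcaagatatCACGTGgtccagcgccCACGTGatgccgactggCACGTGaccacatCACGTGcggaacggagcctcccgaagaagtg
Lgmn, chr12:102439111-102439166, minus strand: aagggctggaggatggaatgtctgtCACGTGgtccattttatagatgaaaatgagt

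In Lamp1 the 4 palindromes begin 61, 45, 28 and 15 bases before the start, and in Atp6v0d1 TCACGTGA begins 4 bases before it. A match is a description of the letters and not a site of binding. The 12 members with CACGTG had a median diet difference of 0.26 in MHCII-low, 0.23 in CD11c-negative and 0.68 in monocyte-derived cells, and the 18 matched members without it 0.31, 0.27 and 0.52. The median interaction was 0.42 with and 0.09 without the palindrome, and 6 of 12 against 5 of 18 genes were called in it. The members with TCACGTGA had no call in MHCII-low and 1, Cln3, in CD11c-negative macrophages, and 4 of 6 were called in monocyte-derived cells (Atp6v1a, Gla, Mcoln1 and Cln3). Of the 24 matched members without TCACGTGA, 11 were higher in MHCII-low cells, and 11 were higher and 1 lower in CD11c-negative cells. In monocyte-derived cells 14 of these 24 were higher and 1 lower.

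The genes of the MiT/TFE factors themselves were measured beside their known targets. Tfeb rose in all 3 populations, from 26.4 ± 2.37 to 40.2 ± 5.88 CPM in MHCII-low, from 33.9 ± 3.30 to 52.9 ± 4.83 CPM in CD11c-negative and from 21.8 ± 2.77 to 37.4 ± 4.50 CPM in monocyte-derived cells, by 0.61, 0.64 and 0.78 on the log2 scale. Mitf rose in CD11c-negative cells by 0.63 and in monocyte-derived cells by 0.81, and had 0.52 (SE 0.20, edgeR adjusted p = 0.0574) in MHCII-low cells. Tfe3, level at 138 to 157 CPM in the macrophage groups, and Tfec were called in no diet comparison.

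The rest of the lysosomal pathway was taken from lists of other genes. Of the genes of like abundance 43.8%, 47.2% and 21.7% were called in the 3 populations, and 34.6%, 32.5% and 18.1% were higher. The counts of these lists stand against those shares. Of 27 other hydrolases and cofactors 16 were higher and 0 lower in MHCII-low, 17 and 2 in CD11c-negative and 17 and 0 in monocyte-derived cells, with median log2 differences of 0.44, 0.42 and 0.51. They included Acp5, the tartrate-resistant acid phosphatase of osteoclasts, which rose by 1.95, 2.05 and 1.62; in monocyte-derived cells the acid phosphatase Acp2 rose by 1.45. Of 9 genes that tag hydrolases with mannose 6-phosphate or sort them, 8, 8 and 6 were higher in the 3 populations and 0 lower. Gnptab, whose product starts the tag, rose by 1.34, 1.72 and 0.51, and Igf2r, the large mannose 6-phosphate receptor, rose from 46.1 ± 3.55 to 344 ± 126 CPM in MHCII-low and from 53.2 ± 6.90 to 443 ± 104 CPM in CD11c-negative cells. The sorting receptor Sort1 rose from 23.2 ± 4.49 to 66.1 ± 8.57 CPM in monocyte-derived cells and by 2.41 on the log2 scale in CD11c-negative cells, and the adaptor Gga2 rose by 0.84 in monocyte-derived cells.

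The counts of the next 3 lists stand against the same shares, 43.8%, 47.2% and 21.7% of the genes of like abundance. Of 15 tested other V-ATPase subunits and assembly factors 5, 4 and 5 were higher and 1, 0 and 2 lower. Besides Tcirg1, the assembly factor Vma21 rose in MHCII-low cells by 0.81, Atp6v0a2 in CD11c-negative cells by 0.86 and the assembly factor Dmxl2 in monocyte-derived cells by 1.31. Of 19 tested other lysosomal membrane proteins 8, 8 and 9 were higher and 2, 2 and 1 lower. The peptide transporter Abcb9 fell in MHCII-low cells from 14.4 ± 3.70 to 4.75 ± 1.48 CPM and in CD11c-negative cells from 18.0 ± 6.34 to 3.77 ± 0.598 CPM, the sialic acid exporter Slc17a5 rose in both, by 0.84 and 0.97, and Cd63 and Cd68 rose in monocyte-derived cells by 2.15 and 1.34. A list of 12 genes covered Ragulator and the Rag GTPases, which tether mTORC1 to the lysosome. It also held Flcn, Fnip1 and Fnip2, which encode neither. Of the 12, 4, 4 and 3 were higher and 0, 2 and 0 lower. Lamtor1 rose by 1.14 in both macrophage populations and Rragd by 0.54 in MHCII-low cells, Fnip1 fell by 0.63 in CD11c-negative cells, and Rraga and Fnip2 rose by 0.71 and 1.21 in monocyte-derived cells.

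Markers of other cells moved with diet as well, where 30.7%, 32.4% and 17.2% of all tested genes were called in the 3 populations. Of 10 adipocyte markers 7, 6 and 1 were lower and 1, 1 and 1 higher, the higher gene in macrophages being Fabp4, which macrophages are also known to express, with 33.3 and 57.2 CPM in lean and obese MHCII-low cells, while Adipoq was at most 1.70 CPM in any group. Of 10 fibroblast markers 3, 3 and 4 were higher and 1, 0 and 0 lower, and their sums ran from 491 to 1375 CPM in lean and from 856 to 2755 CPM in obese libraries. Of 8 dendritic cell markers 3, 5 and 3 were lower, of 9 T and NK cell markers 6, 4 and 1 were lower, of 6 mesothelial markers 4, 2 and 0 were lower, and of 5 B cell markers 3, 1 and 0 were lower; none of 6 endothelial or 4 tested neutrophil markers was called. The neutrophil marker Ly6g was at 0 in 5 of the 7 groups. The part of these cells in the levels of the 36 genes was not tested.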

How the data were processed

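The deposited values are raw counts of reads per gene, which the authors made from libraries of the NuGen Ovation type on PicoPure RNA, per the labels' protocols. The submitters' processing notes name Subread (1.4.6-p5, with featureCounts), the aligner STAR (2.6.0a), Trim Galore (0.4.5), bcl2fastq and the build GRCm38. The sources used here do not give the strand setting. The 36 members and all gene lists were chosen with earlier results of these data known. Genes were filtered with filterByExpr and scaled by TMM, and edgeR 4.0.16 in R 4.3.3 (glmQLFit, robust, glmQLFTest) was fitted to the 7 group means of all 21 libraries, 22935 genes, which left 14 residual degrees of freedom (common dispersion 0.0502). Tests were 2-sided, p-values were adjusted by Benjamini-Hochberg over all genes of a comparison, and each SE is the value its F statistic implies. CPM are TMM-scaled, except those of the sort markers, markers of other cells and receptor genes, which are scaled by library total alone. Values with ± are mean and SD with n = 3. Log2 CPM has a prior count of 2. The lean monocyte-derived libraries, which vary more, share the spread estimated over all groups. Counting error covers sampling of reads only. Named members are the 4 of smallest p in each direction for a diet comparison and 2 for the others, with Atp6v0d1, Atp6v0d2, Lamp1 and Lamp2 always named; members named beyond these, with the counts by role and the ratios, were chosen after their values were seen. From each other lysosomal list the 2 called genes of smallest p in each diet comparison were named, except a gene that is not reported here. In simulated counts for the MHCII-low diet comparison, the fit recovered 68 of 100 genes changed 2-fold and 96 of 100 changed 4-fold among 22249 unchanged genes, 10 of which were called. DESeq2 1.42.0 and its size factors, no filter, the compared libraries alone, replicate blocks and left-out libraries were the alternatives. Titles number replicates 1 to 3; pairs of equal number deviated together in obese mice (18 of 18 pairs of libraries above 0.1, 0.121 to 0.741), so those numbers pair the obese libraries.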

Additional observations from a re-analysis of the deposited data

Results flagged for a closer look

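For 13 genes the diet difference in monocyte-derived cells differed from the mean diet difference of MHCII-low and CD11c-negative macrophages, by an interaction term in edgeR's quasi-likelihood fit. That is 13 of the 36 genes, against 9.39% of all tested genes and 16.7% of those of like abundance. Only Neu1 and Lgmn were called in every alternative. On the log2 scale the interaction was 0.79 for Atp6v0c, 0.73 for Atp6v1a, 0.87 for Atp6v1c1, 0.69 for Atp6v1d and 1.40 for Atp6v1h among the pump genes. It was 1.34 for Gla, 0.60 for Gaa, 1.19 for Neu1, 0.66 for Mcoln1, 0.36 for Cln3 and 1.05 for Lgmn. It was -0.79 for Psap and -0.63 for Gm2a. Among them Neu1, Atp6v1h, Gla, Atp6v0c, Atp6v1d and Gm2a had opposite signs in monocyte-derived cells and in both macrophage populations. Not all of these differences passed the test within a single population.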

How the results depend on the processing

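No call among the 36 genes changed sign in any alternative: of 5148 gene values under another setting 4785 kept their side of the threshold, 253 lost it and 110 gained it. These values include genes without a call in the main fit, which have none to lose. Every alternative kept 6 of 13 diet calls in MHCII-low, 9 of 16 in CD11c-negative and 2 of 23 in monocyte-derived cells. It was 0 of 7 for CD11c-positive against CD11c-negative cells and 2 of 13 for the interaction. For monocyte-derived cells against macrophages it was 27 of 32 in obese and 28 of 31 in lean mice. Counts of called members that moved by more than 1.5 times had causes that were not tested. Without replicate 2 of every obese group, an alternative chosen after seeing the data, the count was 6 for diet in MHCII-low cells, 15 for diet in monocyte-derived cells, 0 for CD11c-negative against MHCII-low and 0 for CD11c-positive against CD11c-negative cells in obese mice, and 2 for the interaction. With the compared libraries fitted alone it was 2 for diet in monocyte-derived cells, 14 for CD11c-positive against CD11c-negative cells, and 3 in obese and 2 in lean mice for CD11c-negative against MHCII-low cells. For the last comparison DESeq2 gave 2 in obese and 3 in lean mice, and no filter on low counts gave 2 in obese mice. Leaving out each library gave 7 to 13 and 9 to 13 for diet in MHCII-low and CD11c-negative cells, 14 to 33 in monocyte-derived cells, 0 to 1 for CD11c-negative against MHCII-low cells in both diets, 0 to 4 for CD11c-positive against CD11c-negative cells and 10 to 23 for the interaction. A replicate block on the description number gave 2 for CD11c-negative against MHCII-low and 10 for CD11c-positive against CD11c-negative cells in obese mice; in lean mice the deviations of equal numbers correlated above 0.1 in 4 of 9 pairs by title and in 5 of 7 by description (lowest 0.066), not in every pair, so the lean numbers were not taken as pairs, and a replicate block on the title number gave 14 for diet in MHCII-low cells.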
